A study of Mus musculus with 5 samples.

Results

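The cytosolic ribosomal protein genes were examined in H3K9ac ChIP-seq of STHdh Q111 cells, a line of mouse striatal progenitor cells. Members were the protein-coding genes of GENCODE vM1 whose symbol is Rpl or Rps with a number and at most a letter (a, l or x), together with Rplp0, Rplp1, Rplp2 and Rpsa. Symbols with -ps and the Rps6k kinases were left out. This rule gave 80 of 22380 protein-coding genes, 48 for proteins of the large subunit and 32 for proteins of the small subunit. The cells carry mutant huntingtin (STHdhQ111/Q111) on the strain C57BL/6 and were kept in serum-free medium for 24 h in every group. The DOP group received 4 mM 4-deoxypyridoxine hydrochloride, which the study used to inhibit the SPL enzyme, and the untreated group received the vehicle, DPBS. Each group had 2 samples, precipitated with the H3K9ac antibody ab4441, and 1 IgG sample of untreated cells was not analysed here. The authors deposited 1 peak list per group, so every comparison between DOP and untreated below is between 2 lists, has no replicate check and no test, and says nothing of the spread between samples. All samples come from a single cell line, which limits them as a model of striatal tissue.

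Each ribosome holds 1 copy of nearly every ribosomal protein, built around the ribosomal RNAs of a small subunit, which reads the messenger RNA, and a large subunit, which joins the amino acids. The genes are among the most actively transcribed in dividing cells, and many of their transcripts start with a C followed by pyrimidines, the 5′ terminal oligopyrimidine (TOP) motif through which mTOR signalling and the protein LARP1 control their translation. Acetylation of lysine 9 on histone H3 is a mark of active promoters and flanks the nucleosome-poor region at the start of transcribed genes.

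The DOP list held 34286 peaks and the untreated list 33355, nearly all of them intervals of 200 bp around a position called by the GPS program. The lists give a score for each peak without defining it. A peak is therefore described by its percentile, the share of the peaks of its own list with a score at or below its own, and neither the depth of the libraries nor a counting error can be given. Genes were given each peak centred at most 10 kb from one of their annotated transcript starts. Of 8 neural progenitor markers, 5 had a DOP peak and 4 an untreated peak, and Nes, Pax6 and Sox2 had none. Of 17 striatal markers, 7 had a DOP peak and 4 an untreated peak, and those without a peak in either list included Drd1a, Drd2, Adora2a and Bcl11b. Mesenchymal markers had a peak at 5 of 6 genes in each list, and oligodendrocyte markers at 1 of 5 in the DOP list and 0 of 5 in the untreated list. Endothelial markers had a peak at 0 of 3 genes, and astrocyte and microglial markers at 1 of 4 genes each, in either list.

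The promoter sequences of the members at the ends of the range of H3K9ac peak height are shown first. They let the promoters of members with high and with low peaks be compared by their letters. Each runs 5′ to 3′ on the gene's strand from 80 bases before the representative start to 20 bases from the start on, in the NCBIM37 (mm9) assembly. Capitals mark GGGCGG, the core of an Sp1 box. They also mark CCGGAA, the core of an Ets or GABP site, and AAGATGGC, the core of a YY1 site. The last word marked, TATAAA, is known from the TATA box. All were searched on both strands and are run together where they overlap. Members were ranked by their highest peak within 10 kb, and at Rpl11 that peak lay nearest to the start of Tceb3. Of the 5 members with the highest peaks, 4 are shown, Rps15 at chr10:79755118-79755217 (plus strand), Rps3a at chr3:85946605-85946704 (minus strand), Rpl11 at chr4:135609289-135609388 (minus strand) and Rpl8 at chr15:76734421-76734520 (plus strand).
Rps15: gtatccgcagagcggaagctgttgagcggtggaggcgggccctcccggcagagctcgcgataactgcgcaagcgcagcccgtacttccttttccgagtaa
Rps3a: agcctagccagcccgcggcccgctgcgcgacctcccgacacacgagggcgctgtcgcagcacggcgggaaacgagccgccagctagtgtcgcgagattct
Rpl11: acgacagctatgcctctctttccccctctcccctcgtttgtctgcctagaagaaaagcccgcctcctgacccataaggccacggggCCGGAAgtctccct
Rpl8: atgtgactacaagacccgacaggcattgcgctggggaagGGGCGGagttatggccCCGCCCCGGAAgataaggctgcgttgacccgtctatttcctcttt

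The 5 members with the lowest highest peak were Rpl36a at chrX:131120113-131120212 (plus strand), Rps4x at chrX:99384714-99384813 (minus strand), Rpl39 at chrX:34625378-34625477 (minus strand), Rpl10 at chrX:71516071-71516170 (plus strand) and Rplp1 at chr9:61762326-61762425 (minus strand). Their windows use the same capitals. Rpl36a holds TATAAA, Rps4x holds GGGCGG on both strands, and the other 3 hold none of the words in these 100 bases.
Rpl36a: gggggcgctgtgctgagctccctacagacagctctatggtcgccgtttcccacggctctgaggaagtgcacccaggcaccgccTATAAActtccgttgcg
Rps4x: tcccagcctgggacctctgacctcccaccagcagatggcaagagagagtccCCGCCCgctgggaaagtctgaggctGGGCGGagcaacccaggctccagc
Rpl39: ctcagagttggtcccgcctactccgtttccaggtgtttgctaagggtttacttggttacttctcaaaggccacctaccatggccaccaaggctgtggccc
Rpl10: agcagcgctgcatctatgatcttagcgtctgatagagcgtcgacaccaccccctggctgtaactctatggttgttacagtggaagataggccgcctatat
Rplp1: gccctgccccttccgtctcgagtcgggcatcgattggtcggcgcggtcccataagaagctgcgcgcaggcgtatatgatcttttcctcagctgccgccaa

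The 2 members with no peak in either list were Rpl10l at chr12:67385369-67385468 (minus strand) and Rpl39l at chr16:10170241-10170340 (plus strand). Both are retained copies, of Rpl10 and Rpl39, that are known to be expressed mainly in the testis. Only the window of Rpl39l holds a marked word, CCGGAA on the reverse strand.
Rpl10l: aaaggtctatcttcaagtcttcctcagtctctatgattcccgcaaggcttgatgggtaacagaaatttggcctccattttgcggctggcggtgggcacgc
Rpl39l: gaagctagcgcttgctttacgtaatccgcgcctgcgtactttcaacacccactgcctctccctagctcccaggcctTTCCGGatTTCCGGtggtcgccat

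Over all members, a C followed by at least 4 pyrimidines stood at an annotated start of 25 of 80 genes (31.3%), compared with 6.16% of all protein-coding genes and 7.92% of the genes with a peak in both lists. A gene counted if any of its annotated starts matched, and members have a median of 4 annotated starts, compared with 2 over all genes. The part of this in the difference was not tested. These 25 members included Rpl5, Rps19, Rps3, Rpl13a and Rpl10a, which are named below for their roles. A matching start of each is shown because of the TOP motif described above, with 10 bases before the start and 20 from the start on. The run of pyrimidines is in capitals. Where more than 1 annotated start of a gene matched, the start with the longest run was taken, and none of those shown is the representative start. The windows are chr5:108329581-108329610 (plus strand), chr7:25669642-25669671 (plus strand), chr7:106632142-106632171 (minus strand), chr7:52384088-52384117 (minus strand) and chr17:28465518-28465547 (plus strand), in the same assembly.
Rpl5: tgactccggtCTTTTTCCCCCTTagcgcgg
Rps19: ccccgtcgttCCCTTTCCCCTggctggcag
Rps3: cgagccacttCCTTTCCTTTCagcggcgcg
Rpl13a: aagacctcctCCTTTCCCaggcggctgccg
Rpl10a: agcgctctgcCTTCTTTCCggtttccgcgg

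In these 5 starts the run is 13 bases long at Rpl5, 11 at Rps19 and Rps3, 8 at Rpl13a and 9 at Rpl10a. The annotated starts are models and not measured starts, and a match of letters is a description only. Within 250 bases before to 50 bases after the representative start, CCGGAA was found at 37 members (46.3%), at 17.8% of all genes and at 27.4% of genes with a peak in both lists. GGGCGG was found at 42 members (52.5%), 44.7% of all genes and 63.4% of genes with a peak. AAGATGGC was found at 6 members (7.5%), 3.33% of all genes and 4.74% of genes with a peak. TATAAA was found at 9 members (11.3%), below the 13.4% of all genes and above the 7.04% of genes with a peak. The ratio of observed to expected CpG within 500 bp of the start had a median of 0.815 at members, compared with 0.555 over all genes and 0.733 over genes with a peak. The lowest member was Rpl3l, at 0.194, a muscle-restricted copy of Rpl3.

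H3K9ac peaks stood near nearly every member in both conditions. In the DOP list 78 of 80 members (97.5%) had a peak within 10 kb, where 57.7% of all genes did, and in the untreated list 78 of 80 (97.5%) did, where 56.9% of all genes did. The 78 genes were the same in both lists, and no member had a peak in 1 list only, while over all genes 535 had peaks of the DOP list alone and 362 of the untreated list alone. A member with a peak had a median of 4 peaks in each list, compared with 3 in each over all genes with a peak. Peaks whose nearest protein-coding start was that of the member, here called own peaks, were found at 77 members in each list. The exception with peaks but no own peak was Rpl3l, whose 8 DOP and 9 untreated peaks all lay nearer to the start of another gene.

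The peaks of the family were also high in rank. The highest peak of a member had a median percentile of 88.3 in the DOP list and 88.8 in the untreated list, compared with 78.4 and 77.3 over all genes with a peak. For the large subunit the medians were 91.0 and 90.4, and for the small subunit 85.0 and 84.4. The top 10% of the list held the highest peak of 32 of 78 members in the DOP list, where the share over all genes with a peak was 27.3%, and of 36 of 78 members in the untreated list, where it was 26.6%. The same 24 members were in the top 10% of both lists. Members also lie closer to other genes, as 51 of 80 (63.8%) had the start of another gene within 10 kb, compared with 35.6% of all genes, and a peak of that gene counts for both. With only the peaks nearest to the gene's own start, the medians were 88.1 in the DOP list and 88.2 in the untreated list at members. Over all genes they were 74.4 and 73.3.

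**Figure D1:**
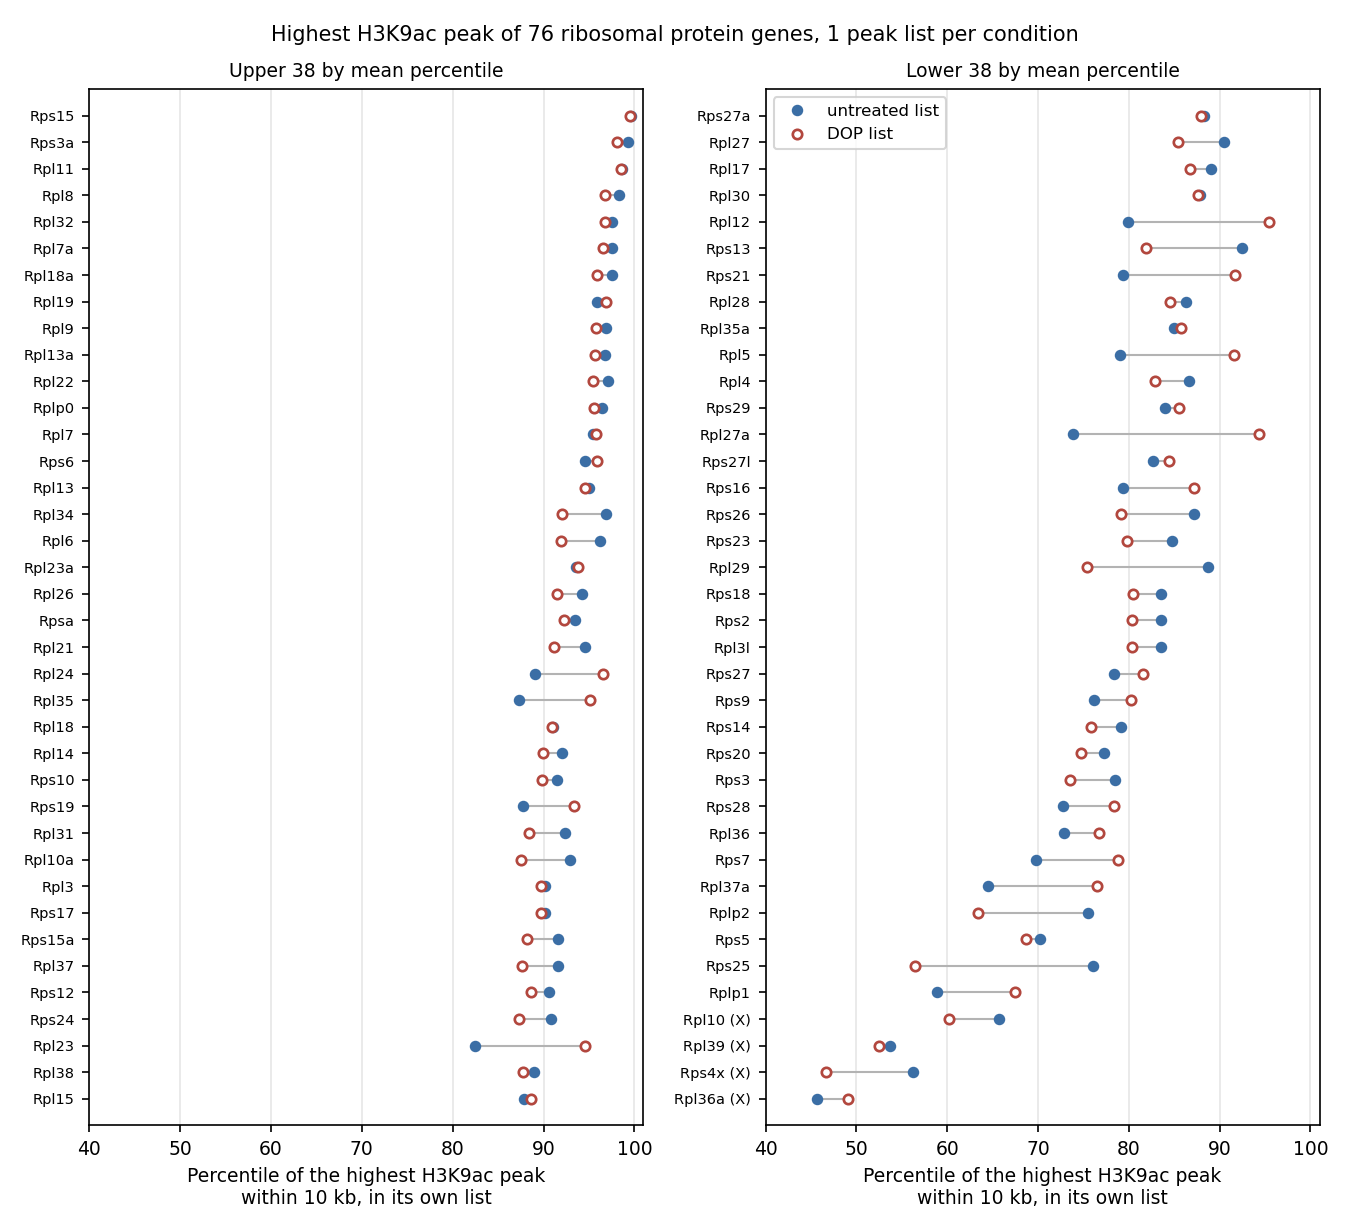
Percentile of the highest H3K9ac peak within 10 kb of 76 of the 78 members with a peak (horizontal axis, percentile within its own list), ordered by the mean of both lists, with the DOP list as open and the untreated list as filled points and X-linked members marked (X). Rps15 stands at 99.5 and 99.6, and the 4 X-linked members are the 4 lowest.

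Highest of all was Rps15, a protein of the head of the small subunit (chr10:79755176-79756859), with percentiles of 99.5 in the DOP list and 99.6 in the untreated list. Its highest peaks were centred 404 and 388 bp downstream of the start. Rps3a, another small-subunit protein, had 98.1 and 99.3, with 5 DOP and 3 untreated peaks. Both genes thus stood near the top of either list. Rpl8, of the large subunit, had 96.8 in the DOP list and 98.3 in the untreated list, and Rpl32 had 96.8 and 97.5 from 2 peaks in each. Rpl11 had 98.6 and 98.7, but those peaks lay nearest to the start of Tceb3, and its own highest peaks had 96.8 and 98.5. The neighbour was counted because Rpl11 has an annotated start far downstream of its representative one.

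At the other end stood the X chromosome. The 4 lowest members by mean percentile were Rpl36a (49.1 in the DOP list and 45.7 in the untreated list), Rps4x (46.7 and 56.3), Rpl39 (52.5 and 53.7) and Rpl10 (60.2 and 65.7), and they are the 4 X-linked members. Their medians were 50.8 in the DOP list and 54.99 in the untreated list, compared with 88.6 and 89.1 for the members on autosomes. The same order was seen over all genes, since genes on the X chromosome had medians of 49.1 and 48.9 and those on autosomes 79.0 and 78.2. The number of X chromosomes in these cells was not examined, and its part in these ranks was not tested. By the highest peak within 10 kb, the lowest autosomal member was Rplp1, an acidic protein of the stalk that recruits elongation factors, with 67.4 and 58.9. With own peaks only, Rps9 had 49.1 and 65.9 and Rps25 had 46.0 and 76.1, so the order of the lowest members was then different. The higher values of Rps9 within 10 kb, 80.3 and 76.2, came from peaks nearest to Tsen34.

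**Figure D2:**
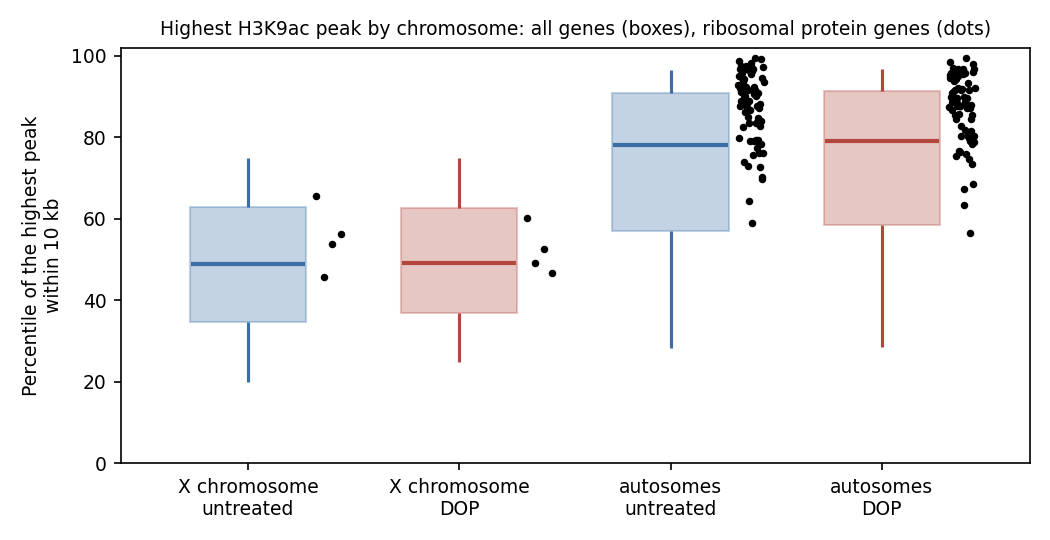
Percentile of the highest H3K9ac peak within 10 kb (vertical axis) for all genes with a peak on the X chromosome (365 in each list) and on autosomes, as boxes from the lower to the upper quartile of genes with the median as a line and whiskers to the outer deciles, and for members as dots. The 4 X-linked members lie between 45.7 and 65.7, beside medians of 49.1 and 48.9 over all genes on that chromosome.

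The peaks lay downstream of the start more often than upstream. A peak centre between 100 and 1000 bp downstream of the representative start was found at 76 of 78 members (97.4%) in both lists, compared with 78.9% of other genes with a peak in the DOP list and 79.2% in the untreated list. Within 100 bp of the start itself, 3 members (3.85%) had a centre, compared with 8.04% and 8.03%. From 100 to 1000 bp upstream, 39 of 78 members had a DOP centre and 33 (42.3%) an untreated centre, compared with 42.4% and 39.4% of other genes. Measured from the representative start, the profile of members also reached further into the gene. Some of these peaks lay at another annotated start, such as the DOP peak of Rps19 at 543 bp, which lay 3 bp upstream of one. Between 200 and 400 bp downstream, 42.3% of members had a DOP centre and 51.3% an untreated centre, below the 57.5% and 57.9% of other genes. Between 400 and 600 bp downstream, 55.1% of members had a DOP centre and 44.9% an untreated centre, where 21.6% and 22.2% of other genes did. Between 1000 and 3000 bp downstream, 21 members (26.9%) had a DOP centre and 25 (32.1%) an untreated centre, compared with 12.7% and 13.3%.

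**Figure D3:**
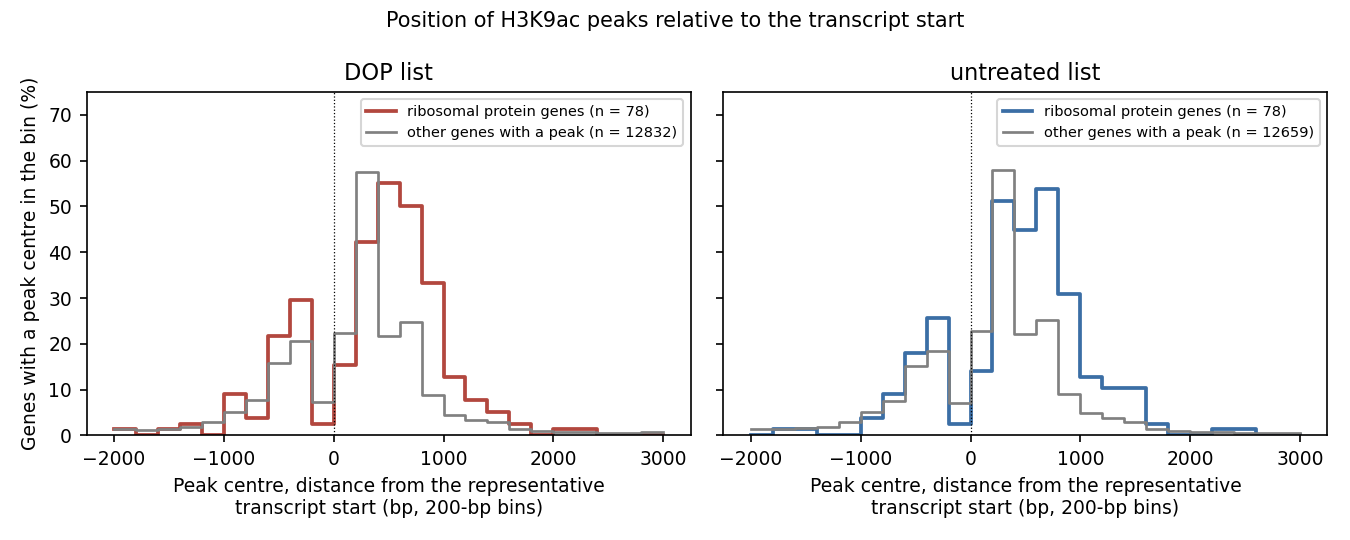
Share of genes (%) with at least 1 H3K9ac peak centre in each 200-bp bin by distance from the representative transcript start (bp), for the 78 members with a peak (coloured) and for other genes with a peak (grey), in the DOP list (left) and the untreated list (right). Members have a gap at the start and a broader block downstream, with 55.1% of them holding a DOP centre from 400 to 600 bp.

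Where the highest peak was the member's own, its centre lay a median of 403.5 bp downstream in the DOP list (66 members, quartiles 298.75 and 451.25 bp) and 403 bp downstream in the untreated list (69 members, quartiles 332 and 520 bp). Both lists placed it almost alike. With peaks nearest to other genes included, the highest peaks of both lists within 10 kb overlapped at 67 of 78 members. The share over all genes is not given here. Introns held 160 of 234 own DOP peaks (68.4%) and 170 of 246 own untreated peaks (69.1%). The 5′ UTR held 19 and 24, coding exons 16 and 20, and sequence outside coding transcripts 39 and 32. Members are short genes, with a median length of 3305.5 bp compared with 15420.5 bp over all genes, and a median of 4 annotated starts compared with 2. The introns of many also hold small nucleolar RNA genes, which guide the modification of ribosomal RNA. Such a gene lay inside 30 members (37.5%) and inside 1.20% of all genes, 58 in all, with 5 at Rpl4 and 4 each at Rpl13a and Rpl7a. The members with a snoRNA gene had medians of 91.3 and 90.4, and those without 87.6 and 88.0, which was not tested. With own peaks only these were 90.6 and 88.4 with a snoRNA gene and 87.3 and 88.2 without, nearly alike in the untreated list.

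Members of known role were spread over the range. Rps6, the small-subunit protein that S6 kinases phosphorylate, had 3 DOP and 4 untreated peaks with highest percentiles of 95.9 and 94.6. Rpl5, which with Rpl11 and the 5S RNA binds Mdm2 when ribosome assembly fails, had 2 DOP peaks with a highest percentile of 91.5 and 3 untreated peaks with 79.0. Rps19, mutated in Diamond-Blackfan anaemia, had 3 and 4 peaks with 93.3 and 87.7. In these 3 genes the DOP list held fewer peaks and the higher percentile. Rps14, whose loss marks a form of myelodysplastic syndrome, had 75.8 in the DOP list and 79.1 in the untreated list. Rps3, which also acts in DNA repair, had 73.6 and 78.4 from 2 and 3 peaks. Rpsa, also known as the laminin receptor, had 4 peaks in each list with 92.2 and 93.5. The last 3 had the higher percentile in the untreated list.

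Rps27a, which is made as a fusion with ubiquitin, had 3 and 4 peaks with percentiles of 88.0 and 88.2. The stalk proteins differed among themselves, since Rplp0, the base of the stalk, had 95.6 and 96.4, while Rplp2 had 63.4 and 75.6. Rplp1 was the lowest autosomal member by the highest peak within 10 kb. The DOP value of Rplp2 came from a peak nearest to Pnpla2, and its own highest DOP peak had 61.4. Rpl13a, which silences translation in the interferon response of myeloid cells, had 8 peaks in each list, and its highest own peaks had 95.7 and 84.2. Rpl10a, of the large subunit, had 3 peaks in each list with 87.5 and 92.9. Across these genes the lists gave similar ranks except at Rpl5, at Rplp2 and, for own peaks, at Rpl13a, where they differed by more than 10 percentile points.

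Copies with restricted expression could be compared with their parents. Rpl3 had own peaks with percentiles of 89.8 and 90.2, while its muscle copy Rpl3l had none of its own. The peaks counted for Rpl3l were highest at Ndufb10, with 80.3 in the DOP list and 83.6 in the untreated list, and the gene shared 6 DOP and 7 untreated peaks with the member Rps2. Rpl10 and Rpl39 had peaks in both lists, while Rpl10l and Rpl39l had none. Rps27 had 6 and 4 peaks with 81.6 and 78.3, and its copy Rps27l, which is induced by p53, had 3 in each with 84.5 and 82.7. A copy therefore had its own peaks only in the last of these 4 pairs. Rps4l is not annotated in this gene set, so Rps4x has no copy to set beside it.

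Comparing the lists by number of peaks, 21 of 78 members (26.9%) had more in the DOP list, where 32.5% of all genes with a peak did, and 30 (38.5%) had more in the untreated list, where 28.5% of all genes did. The other 27 had equal numbers. This order rested on peaks that overlap within a list. GPS can place several events close together, and 71 of the 340 untreated peaks near members (20.9%) overlapped another peak of the same list, compared with 46 of the 333 DOP peaks (13.8%). Over the whole lists the shares were 17.7% and 14.4%. When overlapping peaks of a list were counted as 1, 22 members had more DOP peaks and 18 had more untreated peaks, with 38 equal, compared with 31.4% and 23.6% of all genes. The excess of untreated peaks over DOP peaks at members was thus not seen with overlapping peaks counted as 1.

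**Figure D4:**
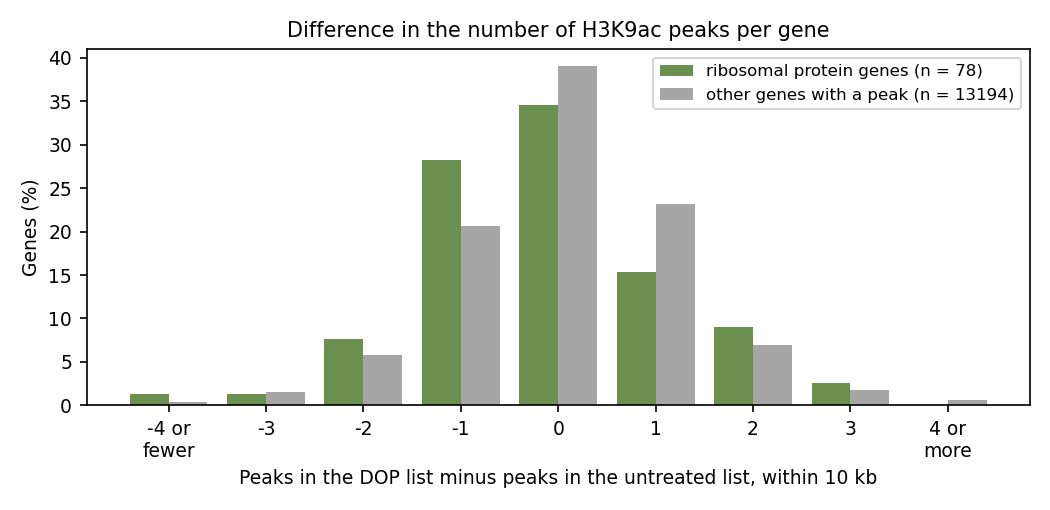
Number of peaks in the DOP list minus the number in the untreated list within 10 kb of a gene (horizontal axis), as the share of genes (vertical axis, %), for 78 members and 13194 other genes with a peak. Of the members, 28.2% have 1 peak fewer in the DOP list and 15.4% have 1 more, compared with 20.6% and 23.1% of the other genes, and the outer classes hold all larger differences.

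The lists differed by at most 1 peak at 61 members and by 3 or more at 4. Equal numbers were found at 34.6% of members, 1 peak fewer in the DOP list at 28.2% and 1 more at 15.4%. The shares of other genes with a peak were 39.0%, 20.6% and 23.1%, in the same order. Rpl23a, of the large subunit next to the exit of the nascent chain, had 8 DOP and 12 untreated peaks, and only 2 and 3 of these were its own, since its other peaks lay at Rab34, Tlcd1 and Nek8. Rps14 had 2 DOP peaks, centred 449 and 880 bp downstream of the start, and 5 untreated peaks, centred 96 bp upstream and 453, 767, 1011 and 1650 bp downstream. The outer untreated peaks of Rps14, with percentiles of 37.5 and 18.9, were overlapped by no DOP peak. In both genes the lists differed by 3 peaks with overlapping peaks counted as 1. Rpl10, a protein near the catalytic centre, had 6 DOP and 3 untreated peaks. Its DOP-only peaks were centred 962 and 345 bp upstream of the start, with percentiles of 30.2 and 24.4, and another lay at Dnase1l1 with 11.6. Rpl3, also near that centre, had 7 and 4 peaks, and its 3 own DOP-only peaks were centred 428 and 337 bp upstream and 2046 bp downstream, with percentiles of 45.0, 35.0 and 69.99. Next came a tie, since 6 members had 2 peaks fewer in the DOP list and 7 had 2 more. The first of these by symbol was Rpl12, with 8 and 10 peaks, or 8 and 9 with overlapping peaks counted as 1. The most peaks over both lists were at Rpl7a (11 and 11), Rpl23a, Rpl12 and Rpl3l, followed by a tie of Rpl13a (8 and 8), Rpl18 (9 and 7) and Rplp2 (9 and 7), and Rpl7a lies beside Med22, Surf1, Surf2 and Surf6.

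**Figure D5:**
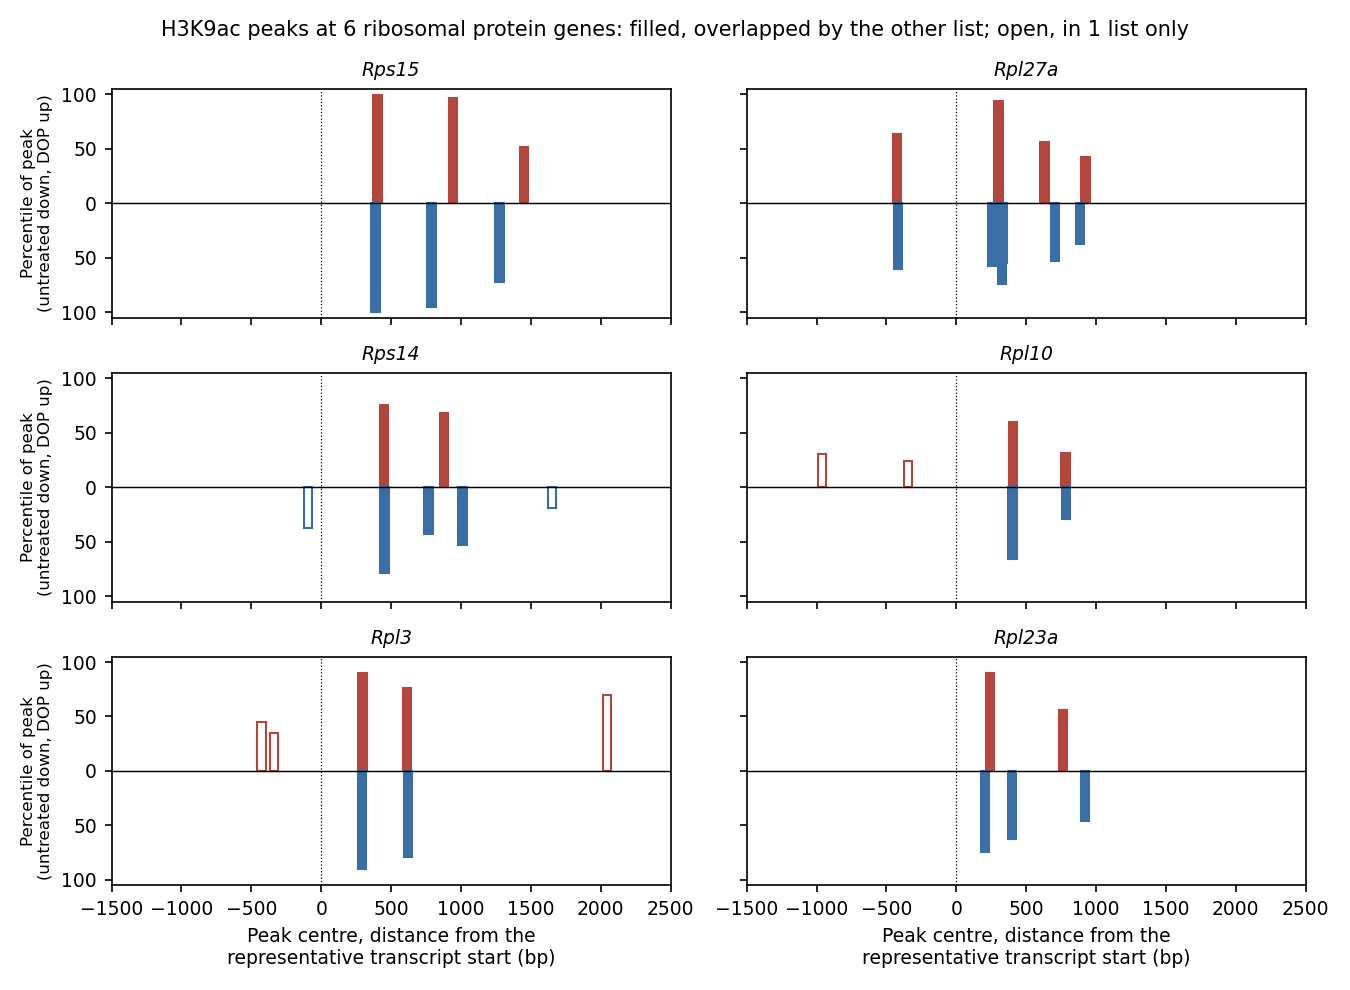
H3K9ac peaks at 6 members by distance of the peak centre from the representative start (horizontal axis, bp) and percentile in its own list (vertical axis), with DOP peaks drawn upward and untreated peaks downward, filled where a peak of the other list overlaps and open where none does. Rps15 and Rpl27a have filled bars only, and at Rpl27a 3 overlapping untreated peaks stand opposite the DOP peak with percentile 94.4.

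By rank, the highest peak stood at a higher percentile in the DOP list at 25 of 78 members (32.1%), where 56.2% of all genes with a peak in both lists did, and at a higher one in the untreated list at 53. The median difference, DOP minus untreated, was -1.12 percentile points at members and 0.633 over all genes. The difference followed the number of peaks. Of the 21 members with more DOP peaks, 3 had the higher percentile in the DOP list, as did 6 of the 27 with equal numbers and 16 of the 30 with more untreated peaks. Over all genes these shares were 37.6%, 58.6% and 73.0%, in the same order. Split by mean percentile, members stood higher in the DOP list less often than all genes in most bands. Above 95 it was 3 of 16, compared with 48.6% of all genes, and from 90 to 95 it was 4 of 15, compared with 47.4%. From 80 to 90 it was 10 of 30, compared with 52.6%, and from 50 to 70 it was 1 of 7, compared with 61.0%. The exceptions were the band from 70 to 80, with 6 of 9 compared with 56.8%, and the band up to 50, which held 1 member.

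Of the 78 members, 56 differed by at most 5 percentile points and 10 by more than 10. The shares over all genes are not given here, so these counts cannot be set beside them. Higher in the untreated list were Rps25 (56.5 in the DOP list and 76.1 in the untreated list), Rpl29 (75.3 and 88.7), Rplp2 (63.4 and 75.6) and Rps13 (81.8 and 92.4). Higher in the DOP list were Rpl27a (94.4 and 73.8), Rpl12 (95.4 and 79.96), Rpl5 (91.5 and 79.0), Rps21 (91.7 and 79.4), Rpl23 (94.6 and 82.5) and Rpl37a (76.5 and 64.5). The DOP values of Rps25 and Rplp2 came from peaks nearest to Trappc4 and Pnpla2, and their highest own DOP peaks had 46.0 and 61.4. These 10 were chosen by their values. At several of them 1 list divided a place that the other called as a single peak. At Rpl27a, a protein of the large subunit, the DOP peak 301 bp downstream of the start stood opposite 3 overlapping untreated peaks at 259, 325 and 330 bp, with percentiles of 57.9, 73.8 and 55.2. At Rps25 it was the DOP list that had 2 overlapping peaks, 100 and 229 bp downstream with 45.6 and 46.0, opposite an untreated peak at 188 bp with 76.1. At Rpl5 the DOP peak at 420 bp stood opposite untreated peaks at 456 and 543 bp, with 75.3 and 79.0. How GPS divides the score between close peaks was not tested.

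Peak by peak, the 333 DOP and 340 untreated peaks near members were mostly shared, meaning that a peak of the other list overlapped by at least 1 bp. Of the DOP peaks 289 were shared and 44 (13.2%) were DOP-only, compared with 20.01% of all DOP peaks and 16.2% of those within 10 kb of any gene. Of the untreated peaks 303 were shared and 37 (10.9%) were untreated-only, compared with 16.7% and 13.3%. A DOP-only peak lay near 31 of 78 members, where the share over all genes with a peak was 37.7%, and an untreated-only peak near 32 of 78, where it was 32.1%. The DOP share was thus near that of all genes. Both kinds were found at 13 members and neither at 28, and the shares over all genes for these counts are not given here. The condition-only peaks were of low rank, with median percentiles of 31.2 in the DOP list and 26.6 in the untreated list, compared with 65.1 and 64.5 for shared ones. Many lay beside a peak of the other list, since 19 of the 44 DOP-only and 21 of the 37 untreated-only peaks had a centre of the other list within 500 bp, and 6 and 2 had none within 1 kb.

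Condition-only peaks above percentile 50 numbered 7 in the DOP list and 5 in the untreated list. The highest DOP-only peak lay in an intron of Rpl3 at chr15:79911691-79911890, at percentile 69.99, with the nearest untreated centre 1424 bp away. The highest untreated-only peak lay in an intron of Rpl38 at chr11:114531112-114531311, at percentile 71.9, with a DOP centre 290 bp away. Rpl38 is a large-subunit protein whose loss in mice alters the pattern of the skeleton. The DOP-only peak upstream of Rpl10, at chrX:71515090-71515289, was 1365 bp from the nearest untreated centre. Apart from those at Rpl3 and Rpl10, the DOP-only peaks farther than 1 kb from an untreated centre were nearest to Rdh10, Wdr38 (2 peaks) and Rnf207, which are not members. The 2 such untreated-only peaks were nearest to Rps10 and Rpl35, with percentiles of 1.53 and 17.5.

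Some members share a promoter region with an unrelated gene. A gene on the opposite strand started at most 1 kb upstream of the representative start of 10 members (12.5%), compared with 8.29% of all genes. Genes whose nearest start lay downstream of the representative start, overlapping the member, were not counted. The pairs counted were Rpl15 and Nkiras1, Rpl18 and Sphk2, Rpl35a and Iqcg, Rpl4 and Zwilch, Rpl7a and Med22, Rpl9 and Lias, Rps18 and Vps52, Rps25 and Trappc4, Rps27 and Rab13, and Rps28 and Ndufa7. A peak there cannot be told apart between the members and their partners. In all, 99 of the 333 DOP peaks and 94 of the 340 untreated peaks near members were nearest to another gene.

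Other genes of protein synthesis and degradation were set beside the members. All 6 ribosomal proteins with other names had peaks in both lists, among them Fau (99.0 and 99.2), made as a fusion with a ubiquitin-like protein. Gnb2l1, the small-subunit scaffold also known as Rack1, had 84.5 and 72.5, Rpl36al had 93.5 and 92.8, Rpl22l1 had 90.2 and 82.7 and Rpl7l1 had 79.7 and 80.6. Of the mitochondrial ribosomal proteins 76 of 77 had a peak in each list, with median percentiles of 81.2 and 77.7, lower than at the cytosolic members. Translation factors had a peak at 57 of 60 genes with 87.2 and 89.1, and proteasome subunits at 41 of 42 with 87.0 and 82.7. Ribosome biogenesis genes had a peak at 35 of 35 with 80.8 and 83.5. The highest peak stood at a higher percentile in the DOP list at 48.7% of mitochondrial ribosomal proteins, 38.6% of translation factors, 48.8% of proteasome subunits and 45.7% of ribosome biogenesis genes with a peak, compared with the 32.1% of members and 56.2% of all genes given above. These values are a description of 2 lists, and the differences between the gene groups were not tested.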

How the data were processed

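H3K9ac was measured by ChIP-seq in STHdh Q111 cells, 2 samples with DOP and 2 with vehicle. The authors aligned single-end reads to mm9, with Bowtie 2 according to the methods and BWA 0.7.10 according to the submitters' processing notes, and called peaks with GPS. They deposited 1 BED list per condition, each peak with a score that the lists do not define. The lists are longer than those the methods describe, and what separates them is not given in the sources used here. The threshold, the use of IgG and how replicates were combined are not given in the sources used here. The score was used only as a rank, the percentile within its own list. Depth per sample is unknown, so no interval is given.

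Genes, transcript starts, exons and UTRs came from GENCODE vM1, and sequences from NCBIM37, the assembly of mm9. The representative start is that of the lowest-numbered coding transcript. Peaks were counted within 10 kb of any start and were shared if they overlapped by at least 1 bp. No test was made, since each condition has 1 list. Alternatives were other windows, own peaks, high-scoring peaks, lists of equal length and other sharing rules, and, chosen after seeing the data, overlapping peaks counted as 1. Functions were tested on simulated data. Members named are those without a peak, with the largest differences in peak number, the highest and lowest percentiles or the most peaks, those sharing peaks, copies and members of known role. Others were named after their values were seen. The members, gene lists and sequence words were chosen with earlier results of these data known. Software was pandas 2.3.3 and numpy 2.4.6 in Python 3.11.15, matplotlib 3.10.9, pysam 0.24.0, scipy 1.17.1 and samtools 1.23.1. Q7 cells, the IgG sample and RNA-seq were not analysed here, and a few genes and 1 sequence are not reported here.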

Additional observations from a re-analysis of the deposited data

How the results depend on the processing

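No paired analysis was possible because the deposited lists hold no values of single samples, and for that reason no sample could be left out in turn. With the top 50% of each list, 215 DOP peaks (333 with all peaks) and 221 untreated peaks (340) lay near members. The DOP-only count of 44 was 23 within 1 kb, 28 with own peaks only, 20 with the top 50%, 25 with centres within 500 bp as the rule for sharing and 90 with reciprocal overlap of at least 50%. The untreated-only count of 37 was 21 within 1 kb, 16 with the top 50%, 16 with centres within 500 bp and 87 with reciprocal overlap of at least 50%. The number of members with more untreated peaks was 18 instead of 30 with overlapping peaks of a list counted as 1, an alternative chosen after seeing the data, which also put fewer members with more untreated peaks than with more DOP peaks. Each of these alternatives counts fewer peaks or defines sharing differently, and what moved each count was not tested. In the other alternatives members with a peak, peak numbers and median percentiles stayed within 1.5 times, or within the 95% order-statistic interval of the median, of the values reported. Depth limits all of these counts by an unknown amount.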

Other observations

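Copies of ribosomal protein genes with -ps in their symbol, most of them annotated as pseudogenes, were left out of the members. The annotation holds 162 of them, of which 21 had a DOP peak and 19 an untreated peak within 1 kb of their start, and 11 had both. The copies with both had low percentiles, from 2.37 for Rps15-ps2 (2.88 in the untreated list) to 26.96 for Rpl3-ps1 (26.0 in the untreated list), and at 10 copies a peak of each list was centred inside the copy. Rpl10a-ps1 stood at 20.2 in the DOP list and 21.9 in the untreated list, Rps16-ps2 at 14.2 and 15.8, and Rpl13-ps3 at 7.58 and 9.88. These copies were not members. Those annotated as protein-coding, such as Rpl13-ps3, are among the 22380 protein-coding genes set beside the members. How the reads of a parent gene and its copies were placed is not given in the sources used here, and its part in these peaks was not tested.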
